A study of Drosophila melanogaster with 12 samples.

Results

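The translation initiation factor genes described here are the 32 symbols of the deposited count table that start with eIF, taken by that spelling alone, out of 17716 symbols in the table. No measured value was used to choose them. Of the 32, 24 had enough counts to be tested and 8 did not. The spelling takes in 2 genes whose products work mainly elsewhere, eIF-5A in elongation and eIF4AIII in the exon junction complex. It leaves out factor subunits that the table lists under other names, which are described separately.

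Initiation factors bring the initiator tRNA and the small ribosomal subunit to the start codon of a messenger RNA. eIF2 carries the initiator tRNA while bound to GTP, eIF2B recharges eIF2 with GTP, eIF3 holds the parts together on the small subunit, and eIF4E, eIF4G and eIF4A bind the cap and open the leader of the message. Cells slow initiation by phosphorylating the alpha subunit of eIF2, which blocks eIF2B, or by letting the 4E-binding protein, the product of Thor, occupy eIF4E. Wing discs are growing larval epithelia in which protein synthesis is under the control of the TOR pathway.

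Polyadenylated RNA was sequenced from wing imaginal discs of Drosophila melanogaster larvae 6 days after egg laying, in 12 libraries, each from a separate pool of 60 discs, with 3 libraries in each of 4 groups. The wild-type condition (WT) carried the abxUbx-Flp flippase source, the flip-out driver Act>y+>Gal4 (Gal4 under an actin promoter) with UAS eGFP, and FRT82B tubGal80 over a plain FRT82B chromosome; this driver set was shared by all groups except S. In the N group the same larvae also had UAS Nicd, the intracellular and active part of the Notch receptor. In the NS group UAS Nicd was combined with the scrib1 allele of the polarity gene scribble on the FRT82B chromosome, across from FRT82B tubGal80, whereas S larvae carried FRT82B scrib1 over the deficiency Df(3R)BSC752 in a background with no driver. The N and NS transgenes act only in cells in which the Gal4 system is on, so those discs are mixtures, while S discs were mutant throughout. S differs from WT in the driver set and the deficiency as well as in scrib1, so in S against WT, in NS against S and in the interaction these cannot be told apart. The genotype text of WT replicates 2 and 3 lists UAS Nicd although their condition is given as wild type. The level of Notch, which can include reads of the transgene, was 652, 885 and 707 CPM (counts as a share of the scaled library total) in WT and 2016 to 2236 in N, so WT replicates 2 and 3 lay far below the N libraries. scrib had 129 to 208 CPM in S against 348 to 448 in WT, and in NS it had 394, 434 and 87.2 CPM. Notch in NS was at 1602, 1458 and 501 CPM, so NS replicate 3 alone of the NS libraries was below the highest WT library for Notch and below every WT library for scrib.

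Library totals ranged from 21024017 to 42407447 counts, scaled for CPM by the trimmed mean of M values (TMM). Changes were tested with the quasi-likelihood test of edgeR across all 9444 genes with enough counts, with 0.05 as the limit for a call on the p adjusted by Benjamini-Hochberg. The replicates are pools of discs, so p-values measure the spread between such pools. In whole discs, fewer cells of a type and less RNA per cell cannot be told apart. Defining wing disc markers were present in every library, with a summed level of 1356 to 3319 CPM outside NS replicate 3 and 1072 CPM in it. In S their sum was 1356 to 1689 CPM, below the 1960 to 2241 CPM of WT. Single markers of this list moved in different directions. In every S library nub, vg, sd, en, pnr and pdm2 were below WT, and ap, rn and wg overlapped WT. The marker tsh was above WT in S replicates 1 and 2 (394 and 391 against 299 to 338 CPM) and below it in S replicate 3 (249 CPM). In every N library nub, vg, ap, sd, rn and wg were above WT, pnr, tsh and pdm2 were below it, and en lay within its range. In every NS library nub, en, pnr and pdm2 were below WT and wg was above it, while vg, ap, sd, rn and tsh varied between libraries. The level of pnr was 0.925, 0.739 and 0.660 CPM in NS against 41.7, 38.2 and 49.8 in WT. Marker sums of other cell types moved with the groups. Summed fat body markers were at 311 to 927 CPM in WT, 348 to 3067 in N, 1185 to 13078 in S and 1143 to 7131 in NS. Every S and NS library was above every WT library in this sum. In S replicate 1 and NS replicate 1 each marker of the list was above WT. FASN1 made up 1132 of 1143 CPM in NS replicate 2 and 1395 of 1513 CPM in S replicate 2. The other fat body markers were all below every WT library in NS replicate 2. In S replicate 2, Lsp1alpha, Lsp1gamma and Fbp1 were below every WT library, and Lsp1beta, Lsp2 and Fbp2 lay within the WT range. The S libraries were also above WT in summed haemocyte markers (76.6 to 349 against 32.2 to 61.8 CPM) and summed tracheal markers (1165 to 1535 against 810 to 1020 CPM). NS had 44.5 to 81.8 and 879 to 1603 CPM in these sums. Of the tracheal markers, verm and serp were above WT in every S library. The other tracheal markers, trh (35.1 to 45.2 against 71.0 to 88.9 CPM) and btl (2.62 to 3.44 against 11.6 to 16.1 CPM), were below WT there. Neuron markers were at 163 CPM in S replicate 1 and 13.7 to 44.7 CPM in the others. The sum of adult muscle precursor markers was lower in every N, S and NS library (135 to 338 CPM) than in WT (345 to 384 CPM). In S replicates 1 and 2, htl (52.0 and 52.1 against 27.6 to 29.9 CPM) and stumps (87.6 and 92.8 against 57.9 to 67.9 CPM) were above WT. In every S library twi, Mef2 and how were below WT, and Him lay within the WT range. The part of these cells in the results of S and NS was not tested.

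One library stood apart, and the initiation factor genes showed it. In NS replicate 3, the difference from the mean of NS replicates 1 and 2 was lower the longer the gene: over the 24 tested factor genes Spearman's rho between this log2 difference and exon length was -0.930, and over 9411 genes with a length it was -0.738. The points of this correlation are genes of the same library and are not independent. The longest tested member, eIF4G, had 369 CPM in NS replicate 3 against 803 and 685 CPM in the other NS libraries, while the short eIF-2beta had 660.4 CPM against 343 and 311. The median difference of the 24 genes was 0.38 on the log2 scale, against 0 for all genes. S replicate 3 deviated from the other S libraries in the same direction but less, with rho of -0.563 over the 24 members and -0.440 over all genes, and a median difference of -0.03. Results are therefore given with all 12 libraries, and counts of calls also without NS replicate 3 and S replicate 3.

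**Figure D1:**
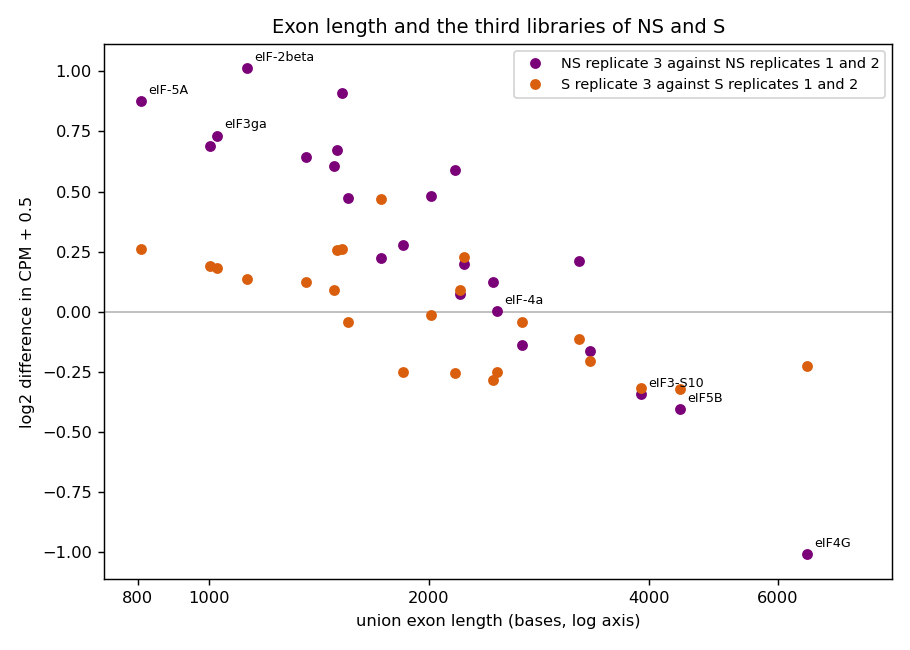
Log2 difference of NS replicate 3 and S replicate 3 from the mean of the other 2 libraries of its group, against exon length. Exon length is in bases on a log axis, and the tested initiation factor genes except eIF4E-3 are shown. For NS replicate 3 the short genes lie above 0 and eIF4G and eIF5B, the longest, below it. For S replicate 3 the slope is shallower.

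In WT the tested genes ranged from very abundant to barely detected. Per kilobase of exon, eIF-5A (hypusinated, acts in elongation and at stalling motifs) was the highest with 2395 ± 187 CPM per kb (SD, n = 3). eIF-4a, which encodes the RNA helicase eIF4A of the cap complex, followed with 1169 ± 97.7 CPM per kb. The eIF3 subunit gene eIF3-S9 (current name eIF3b) was the third with 419.5 ± 46.3 CPM per kb, and these 3 did not overlap with each other or with the rest. The next group, 5 genes for subunits of eIF3 and eIF2 from eIF-3p66 (281) to eIF-2beta (252), followed without a gap, neighbours in this order differing by no more than the larger of their SDs. The cap-binding gene eIF-4E (current name eIF4E1) had 206 ± 3.92 CPM per kb, about the level of eIF3-S10 with 203 ± 20.2. The scaffold gene eIF4G (current name eIF4G1) had 100.001 ± 8.50, and eIF5B, the GTPase for subunit joining, had 62.3 ± 3.69. The 5 eIF2B subunits lay close together at 25.9 to 36.8 CPM per kb, below each eIF2 subunit at 142 to 252. The lowest of the 24 was the paralog eIF4E-3 with 0.279 CPM per kb.

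Of the 8 genes that were not tested, eIF4G2 and eIF6 are listed at 0 in all 12 libraries. eIF-4B, for a cofactor of eIF4A, is listed at 0 in 11 libraries and has 88 counts in WT replicate 3. The other five are eIF3gb, a second copy of an eIF3 subunit gene, and the cap-binding paralogs eIF4E-4, eIF4E-5, eIF4E-6 and eIF4E-7. A gene that every cell needs can also be listed at 0 because of the counting, so no absence of expression is read from these zeros.

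**Figure D2:**
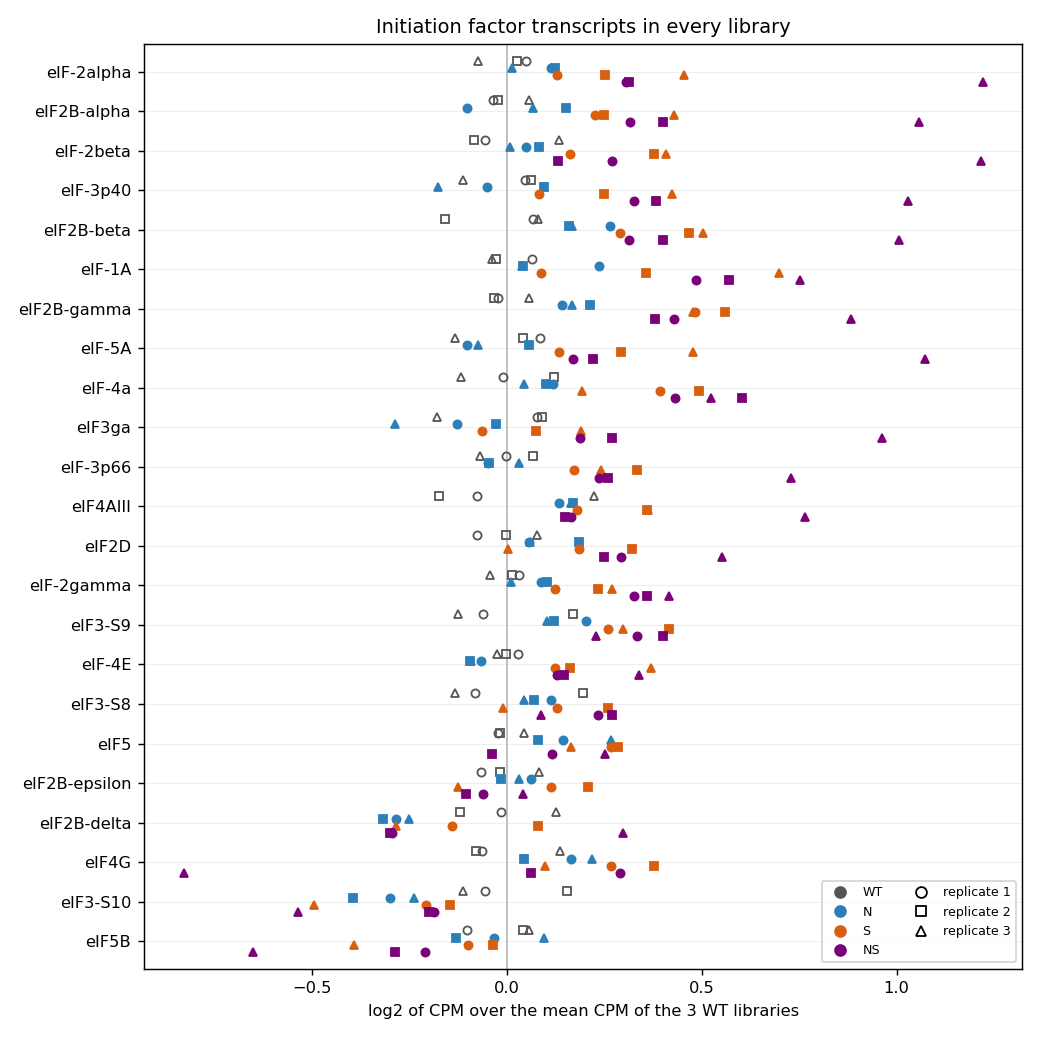
Level of each tested initiation factor gene in every library as log2 difference from its own mean over the 3 WT libraries, with 1 row per gene. The gene eIF4E-3 is left out. The NS libraries are the most raised, most of all NS replicate 3, and eIF4G, eIF5B and eIF3-S10 run the other way there.

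With all 12 libraries, discs with both changes had higher levels of a set of initiation factor genes than wild type. In NS against WT, 9 of the 24 genes rose and 0 fell by the edgeR test, against 13.9% and 10.7% of all tested genes called higher and lower. The 9 were eIF-1A, eIF-2alpha, eIF-2gamma, eIF2B-alpha, eIF2B-beta, eIF2B-gamma, eIF-3p40, eIF-4a and eIF2D, and the median log2 change over the 24 was 0.41 against 0.03 over all genes. By DESeq2 11 were called higher and 1 lower (eIF5B), against 17.2% and 14.8% of all genes, and 16 members had an unadjusted p under 0.05 in either direction, as did 39.1% of all genes. A fit of the NS and WT libraries alone called 0 of the 24 in either direction by edgeR, with 5.18% and 6.29% of all genes called higher and lower, and 8 members had an unadjusted p under 0.05 (29.4% of all genes). With TMM replaced by library totals, the median of all genes shifted to -0.13 and that of the 24 to 0.23, and 2 genes were called. The count was 2 when WT replicate 1 or 2 was left out, 3 for WT replicate 3, 5 for N replicate 1 (6.3% to 11.6% of all genes called higher in these fits), and 0 with WT replicate 1 as the only WT library, whose spread is then taken from the other groups; in that last fit 2.21% of all genes were called higher.

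In the S discs, against WT, 2 of the 24 genes rose, eIF2B-gamma and eIF-4a, and 0 fell, against 12.7% and 10.7% of all genes, with a median log2 change of 0.25 over the 24 and 0.04 over all genes. By DESeq2 4 were called higher and 0 lower, against 16.5% and 16.1% of all genes, and 5 of the 24 passed 0.05 before adjustment, a lower share than the 38.8% of all genes that did. The count became 13 without NS replicate 3, where 23.4% of all genes were called higher and 20.6% lower. It became 0 when S replicate 2 or either of WT replicates 1 and 2 was left out, and 1 when WT replicate 3, S replicate 1, NS replicate 1 or 2, or any of the N libraries was left out, with 5.89% to 12.4% of all genes called higher in these fits.

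With activated Notch alone, N against WT, 0 of the 24 genes were called in either direction by edgeR and by DESeq2, and 0 had an unadjusted p under 0.05 (16.4% of all genes did). Of all genes 1.09% and 2.08% were called higher and lower by edgeR, and 3.28% and 5.3% by DESeq2. The median log2 change was 0.06 over the 24 and 0.01 over all genes. In NS against N, which asks what the scribble mutation adds to activated Notch, 0 genes were called by edgeR (4.22% higher and 3.66% lower of all genes), 9 were called higher by DESeq2 (9.4% and 7.94%), and 16 had an unadjusted p under 0.05 (27.8% of all genes). The median was 0.35 against 0.07. The count in NS against N was 3 without NS replicate 1, 1 without NS replicate 3 and 2 without S replicate 3, where 5.13%, 5.04% and 4.73% of all genes were called higher. In NS against S, 0 were called by either tool (1.57% and 2.27% of all genes by edgeR, 4.08% and 5.15% by DESeq2) and 2 had an unadjusted p under 0.05 (17.1% of all genes), with a median of 0.16 against 0.01. The interaction, the difference of NS from S less that of N from WT, had 0 calls by either tool (0.858% and 0.466% of all genes by edgeR, 3.1% and 1.79% by DESeq2) and 1 member with an unadjusted p under 0.05 (13.3% of all genes). These comparisons share the WT, N or S libraries, so their values are not independent of each other.

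Without NS replicate 3 and S replicate 3, the median change in NS against WT was 0.23, that in NS against S was -0.00434 and that in S against WT was 0.21. In this fit of 10 libraries 11 of the 24 genes were called higher and 2 lower in NS against WT, where 16.8% of all genes were called in each direction. In S against WT 8 were called higher and 0 lower (23.3% and 24.2% of all genes), and in NS against N 9 higher and 0 lower (8.62% and 8.07%). In N against WT 0 were called higher and 2 lower (6.01% and 9.02%), namely eIF2B-delta and eIF3-S10. In NS against S (7.63% and 5.36% of all genes) and in the interaction (6.17% and 2.81%) 0 were called in either direction by edgeR, and 4 and 5 members had an unadjusted p under 0.05 (29.5% and 28.7% of all genes).

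**Figure D3:**
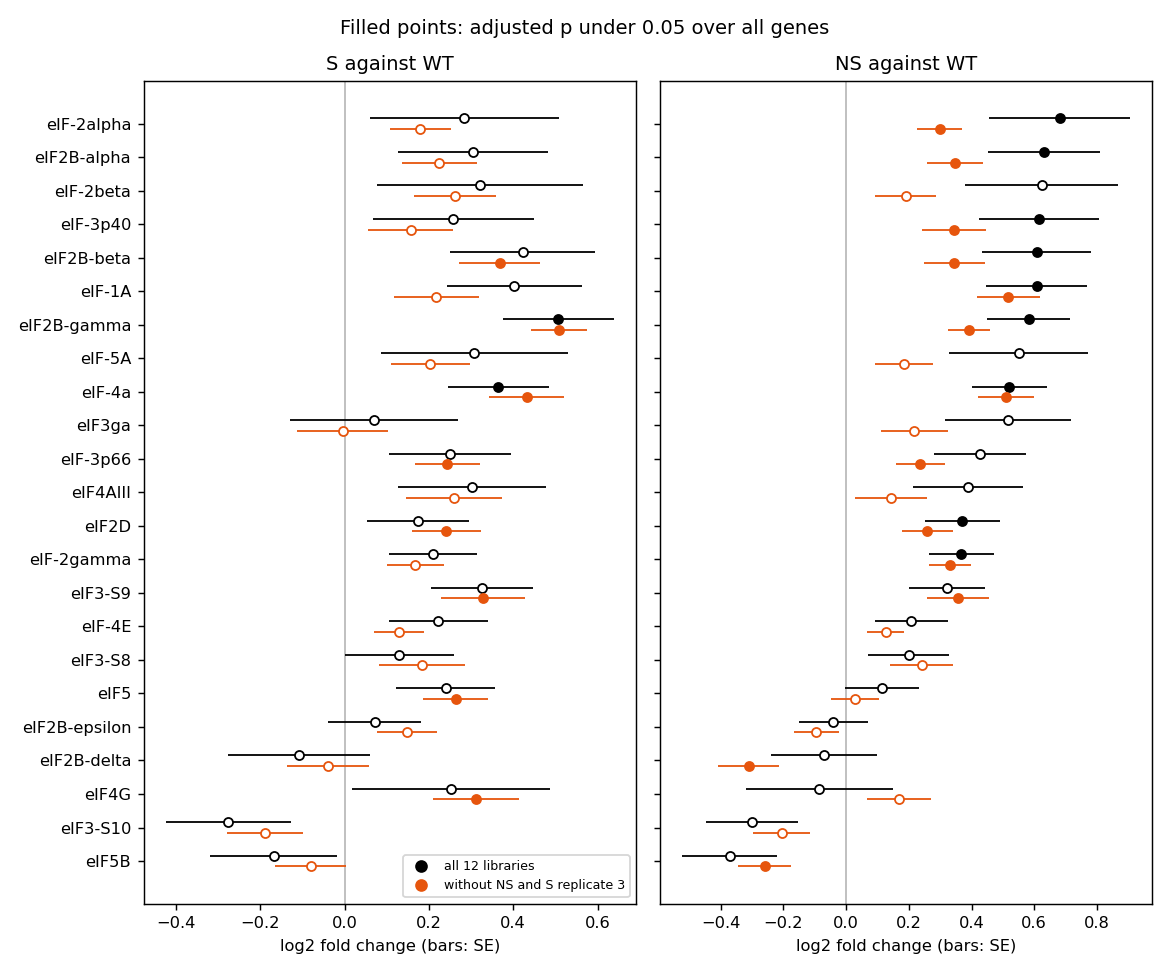
Log2 change of each tested initiation factor gene except eIF4E-3 in comparisons with WT. Values are from the fit of all 12 libraries and from the fit without NS replicate 3 and S replicate 3, and bars are standard errors. Short genes such as eIF-2alpha and eIF-2beta move toward 0 in NS without the 2 libraries, and eIF4G crosses 0.

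Groups whose libraries did not overlap were counted as well. In S against WT 14 of the 24 genes were higher in every S library than in every WT library, and 1 was lower in every one, against 27% and 23.9% of all tested genes. In NS against WT the counts were 14 higher and 2 lower (21.7% and 21.5%), and in NS against N 15 higher and 1 lower (20.5% and 21%). In N against WT they were 3 higher and 3 lower (16.9% and 17.2%), and in NS against S 1 higher and 0 lower (8.5% and 9.11%). Without NS replicate 3 and S replicate 3, which leaves 2 libraries each in S and NS, 17 were higher and 1 lower in S against WT (33.8% and 31.3% of all genes), 15 and 3 in NS against WT (29.3% and 27.8%), 17 and 2 in NS against N (28% and 27.4%), and 6 and 6 in NS against S (31.9% and 31.2%).

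Among the factors that load the initiator tRNA, eIF-1A (eIF1A, chr3R:18274665-18283005 on dm6), which helps the small subunit scan to the start codon, had WT levels of 299, 280.2 and 278 CPM, close to the N levels of 336, 294 and 293. The S libraries had 304, 366 and 463 CPM, and the NS libraries had 400.1, 424 and 481. All NS libraries lay above all WT and N libraries, with S spread between them. eIF-1A rose in NS against WT (log2 change 0.61 ± 0.16 (SE), edgeR adjusted p = 0.0199), and its S change was 0.40 ± 0.16 (SE, edgeR adjusted p = 0.0893). The S change was called without NS replicate 3 or S replicate 1, with edgeR adjusted p between 0.0428 and 0.0453. The NS call was lost without WT replicate 1, 2 or 3, with edgeR adjusted p between 0.0556 and 0.0736.

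The gene of the phosphorylated subunit, eIF-2alpha (chrX:16445176-16446993), had 258, 255 and 237 CPM in WT, 270.4, 272 and 252 in N and 273, 298 and 342 in S. In NS it had 309, 311 and 583 CPM, the last of these far above the other two. It rose in NS against WT (log2 change 0.68 ± 0.22 (SE), edgeR adjusted p = 0.0487), and without NS replicate 3 and S replicate 3 the change was 0.30 ± 0.07 (SE, edgeR adjusted p = 0.0122). The call was lost without WT replicate 1, 2 or 3, NS replicate 3, S replicate 1, 2 or 3 or N replicate 1, 2 or 3, with edgeR adjusted p between 0.0572 and 0.121. Of its exon bases 12.6% overlap rngo on the opposite strand, and whether counting used strand is not stated in the labels.

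Of the other subunits, eIF-2gamma (chr3R:15257844-15263458), which binds GTP and the tRNA, had 319.9, 316 and 304 CPM in WT, 333, 337 and 316 in N, 342, 368 and 378 in S and 393, 402 and 418 in NS. With all 12 libraries it was the one member whose NS libraries all lay above the S libraries as well as the WT and N libraries. It rose in NS against WT (log2 change 0.37 ± 0.10 (SE), edgeR adjusted p = 0.0273), and the call was lost without WT replicate 1, 2 or 3 or N replicate 1, with edgeR adjusted p between 0.0508 and 0.0865. Of its exon bases 15.98% are shared with Su(var)3-9 on the same strand, so reads there cannot be told apart. eIF-2beta (chr3L:12525093-12526731) had 273, 268 and 312 CPM in WT, 294, 301 and 286 in N, 318, 369 and 378 in S and 343, 311 and 660.4 in NS, where replicate 3 again stood out. It did not pass the test in NS against WT (log2 change 0.62 ± 0.24 (SE), edgeR adjusted p = 0.0863), except without NS replicate 2 (edgeR adjusted p = 0.0331). eIF2D, a factor for start without eIF2 and for ribosome recycling, had 40.03, 42.1 and 44.5 CPM in WT, 43.9, 47.9 and 44.0 in N, 47.9, 52.7 and 42.3 in S and 51.7, 50.1 and 61.9 in NS. It rose in NS against WT (log2 change 0.37 ± 0.12 (SE), edgeR adjusted p = 0.0463), with the call lost without WT replicate 1, 2 or 3, NS replicate 1 or 3, S replicate 1 or 2 or N replicate 1, 2 or 3, with edgeR adjusted p between 0.0549 and 0.151.

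Of the 5 subunit genes of the exchange factor eIF2B, 3 rose in NS against WT and 1 in S against WT, and 0 of 5 fell. The gene of a catalytic subunit, eIF2B-gamma (chr2R:15542661-15544409), had 39.5, 39.2 and 41.7 CPM in WT, 44.2, 46.5 and 45.0 in N, 56.1, 59.1 and 55.9 in S and 54.0, 52.3 and 74.0 in NS. No library of N, S or NS was as low as the highest WT library. It had the smallest adjusted p of the 24 genes, in NS against WT (log2 change 0.58 ± 0.13 (SE), edgeR adjusted p = 0.0102) and in S against WT (log2 change 0.51 ± 0.13 (SE), edgeR adjusted p = 0.0194). In N against WT its change was 0.17 ± 0.13 (SE, edgeR adjusted p = 0.625). The NS call held with each of the 12 libraries left out in turn but not in a fit of NS and WT alone (0.59 ± 0.18 (SE, edgeR adjusted p = 0.0934)) or with WT replicate 1 as the only WT library (0.61 ± 0.21 (SE, edgeR adjusted p = 0.142)). The S call was lost without WT replicate 1 or 2 or S replicate 1 or 2, with edgeR adjusted p between 0.0537 and 0.079.

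Of the regulatory subunits, which sense phosphorylated eIF2, eIF2B-alpha (chr3R:29934582-29935888) had 28.5, 28.8 and 30.4 CPM in WT, 27.2, 32.5 and 30.7 in N, 34.2, 34.8 and 39.4 in S and 36.4, 38.6 and 60.9 in NS. This gene rose in NS against WT (log2 change 0.63 ± 0.18 (SE), edgeR adjusted p = 0.0276). eIF2B-beta (chrX:2704571-2706217) had 52.3, 44.7 and 52.7 CPM in WT, 59.9, 55.7 and 56.0 in N, 61.0, 68.9 and 70.7 in S and 62.0, 65.8 and 100.2 in NS. eIF2B-beta also rose in NS against WT (log2 change 0.61 ± 0.17 (SE), edgeR adjusted p = 0.0278). In both, NS replicate 3 was the highest of the 12 libraries. Without NS replicate 3 and S replicate 3 the changes in NS were 0.35 ± 0.09 (SE, edgeR adjusted p = 0.0163) and 0.35 ± 0.10 (SE, edgeR adjusted p = 0.0231). The eIF2B-alpha call was lost without WT replicate 1, 2 or 3, with edgeR adjusted p between 0.0515 and 0.0876. The eIF2B-beta call was lost without WT replicate 1 or 2, with edgeR adjusted p between 0.0671 and 0.109.

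eIF2B-delta (chr2R:23386521-23389052) had 71.3, 66.3 and 78.7 CPM in WT, 59.1, 57.8 and 60.6 in N, 65.3, 76.2 and 59.2 in S and 58.7, 58.5 and 88.6 in NS. All N libraries lay below all WT libraries, and NS replicates 1 and 2 were among the lowest values while NS replicate 3 was the highest of the 12. Its change was -0.29 ± 0.17 (SE, edgeR adjusted p = 0.482) in N against WT and -0.07 ± 0.17 (SE, edgeR adjusted p = 0.773) in NS against WT. In the fit without NS replicate 3 and S replicate 3 these were -0.30 ± 0.09 (SE, edgeR adjusted p = 0.0483) and -0.31 ± 0.10 (SE, edgeR adjusted p = 0.0368), both called lower. The catalytic subunit eIF2B-epsilon varied little, between 59.3 and 74.7 CPM over the 12 libraries, and was not called in any comparison.

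The ratio of eIF2B-gamma to eIF2B-delta, taken within each library and chosen after the values were seen, was 0.554, 0.591 and 0.530 in WT and 0.748, 0.804 and 0.744 in N. It was 0.858, 0.776 and 0.945 in S and 0.919, 0.893 and 0.836 in NS. WT thus had the lowest ratio of the 4 groups in every library, NS replicate 3 included. A ratio within a library shows unequal change in the counts of the 2 genes and is given without a test. The exons of eIF2B-gamma are shorter than those of eIF2B-delta (1548 against 2174 bases). A trend with exon length in a library can therefore move the ratio too, and its part was not tested.

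Of the 7 eIF3 subunit genes with the eIF prefix 6 were tested, and of these 1 rose in NS against WT, 0 in S against WT and 0 fell in either. eIF-3p40 (eIF3h, chr2L:5051193-5053094), for a non-core subunit, had 421, 425 and 376 CPM in WT, 393, 435 and 360.0 in N, 431, 484 and 546 in S and 511, 531 and 831 in NS. It rose in NS against WT (log2 change 0.62 ± 0.19 (SE), edgeR adjusted p = 0.0395), without overlap of the NS libraries with WT or N, and by 0.34 ± 0.10 (SE, edgeR adjusted p = 0.0285) without NS replicate 3 and S replicate 3. The call was lost without WT replicate 1, 2 or 3, NS replicate 3, S replicate 1 or 2 or N replicate 1, 2 or 3, with edgeR adjusted p between 0.0506 and 0.105, and 16.8% of its exon bases overlap senju on the opposite strand.

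The core scaffold genes eIF3-S9 (eIF3b) and eIF3-S10 (eIF3a) lay on opposite sides of WT. eIF3-S9 (chr2R:17536213-17539142) had 1078, 1266 and 1031 CPM in WT, 1296, 1223 and 1209 in N, 1347, 1501 and 1383 in S and 1417, 1485 and 1317 in NS. eIF3-S10 (chr3R:4429798-4433895) had 759, 878 and 730.0 CPM in WT, 641, 599.6 and 669 in N, 683, 713 and 559.9 in S and 693, 686 and 544 in NS. Every S and NS library was above WT for the first and below WT for the second. Neither passed the test with all libraries, and eIF3-S9 passed without NS replicate 3 (edgeR adjusted p = 0.026). In NS against WT the changes were 0.32 ± 0.12 (SE, edgeR adjusted p = 0.0743) and -0.30 ± 0.15 (SE, edgeR adjusted p = 0.157). Without NS replicate 3 and S replicate 3, eIF3-S9 was called higher in NS against WT with 0.36 ± 0.10 (SE, edgeR adjusted p = 0.022), and eIF3-S10 was called lower in N against WT with -0.32 ± 0.08 (SE, edgeR adjusted p = 0.0277). Their ratio, also chosen after the values were seen, was 1.42, 1.44 and 1.41 in WT, 2.02, 2.04 and 1.81 in N, 1.97, 2.11 and 2.47 in S, and 2.05, 2.16 and 2.42 in NS. All 9 libraries of N, S and NS were above all 3 of WT in this ratio. It was highest in S replicate 3 and NS replicate 3. The exons of eIF3-S9 are shorter than those of eIF3-S10 (2682 against 3892 bases), and the part of exon length in the ratio was not tested.

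**Figure D4:**
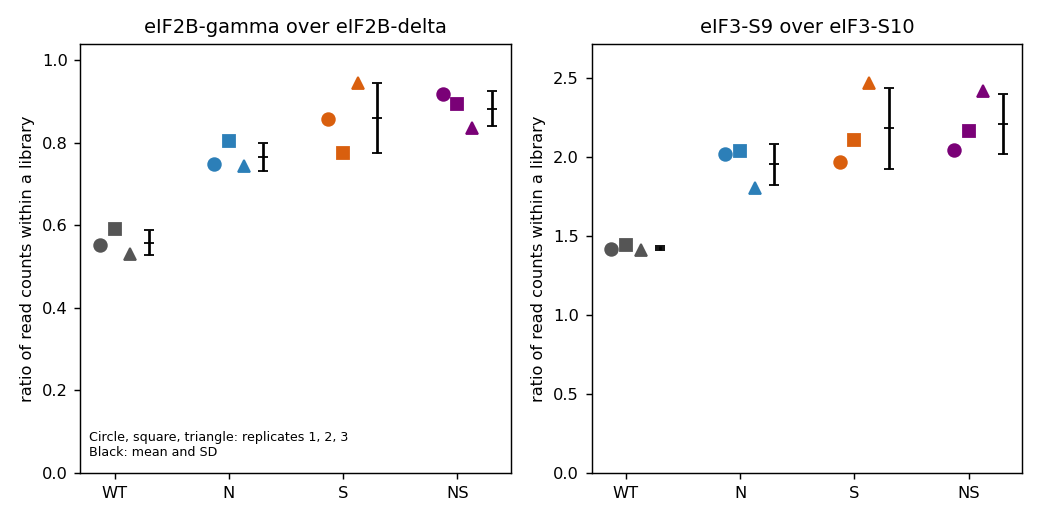
Ratio of CPM between subunits of the same factor in each library, with 1 marker per library and axes from 0. The WT libraries are lowest for eIF2B-gamma over eIF2B-delta (0.530 to 0.591) and for eIF3-S9 over eIF3-S10 (1.41 to 1.44).

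The remaining eIF3 genes did not pass with all libraries. eIF3ga (eIF3g1) had a log2 difference of 0.52 ± 0.20 (SE, edgeR adjusted p = 0.0834) in NS against WT, with 326, 345 and 559 CPM in NS against 302, 305 and 253 in WT, and was called without NS replicate 1 (edgeR adjusted p = 0.0418). eIF-3p66 (eIF3d1), a subunit known to bind some caps directly in human cells, had one of 0.43 ± 0.15 (SE, edgeR adjusted p = 0.0546), with 665, 676 and 936 CPM in NS against 564, 591 and 538 in WT. It was called without NS replicate 1 or 2, with edgeR adjusted p between 0.0368 and 0.0447. Without NS replicate 3 and S replicate 3, eIF-3p66 was called higher in NS against WT with 0.24 ± 0.08 (SE, edgeR adjusted p = 0.0419). eIF3-S8 (eIF3c) had a log2 difference of 0.20 ± 0.13 (SE, edgeR adjusted p = 0.278) in NS against WT.

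In the cap complex, the helicase gene was the one that passed. eIF-4a (chr2L:5981764-5985909) had 2876, 3151 and 2667 CPM in WT, 3143, 3105 and 2989 in N, 3804, 4077 and 3309 in S and 3904, 4404 and 4162 in NS. All NS libraries lay above all WT and N libraries, and NS replicate 3 differed from the mean of the other NS libraries by 0.00266 on the log2 scale, the smallest such difference among the tested members. It rose in NS against WT (log2 change 0.52 ± 0.12 (SE), edgeR adjusted p = 0.011) and in S against WT (log2 change 0.36 ± 0.12 (SE), edgeR adjusted p = 0.0494). The NS call held with each of the 12 libraries left out in turn but not in a fit of NS and WT alone (0.52 ± 0.16 (SE, edgeR adjusted p = 0.0948)), with WT replicate 1 as the only WT library (0.53 ± 0.20 (SE, edgeR adjusted p = 0.166)) or with no filter (0.52 ± 0.16 (SE, edgeR adjusted p = 0.0512)). The S call was lost without WT replicate 1, 2 or 3, NS replicate 1 or 2, S replicate 1 or 2 or N replicate 1, 2 or 3, with edgeR adjusted p between 0.0523 and 0.186. In NS against N the change was 0.43 ± 0.12 (SE, edgeR adjusted p = 0.0519), the smallest adjusted p of the members there, and without NS replicate 3 and S replicate 3 it was called, with 0.44 ± 0.09 (SE, edgeR adjusted p = 0.0112). It was also called without NS replicate 3 or S replicate 3, with edgeR adjusted p between 0.0333 and 0.0445.

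The cap-binding gene eIF-4E (chr3L:9399618-9402460) had 469, 459 and 451 CPM in WT, 439, 430.3 and 431 in N, 501, 514 and 594 in S and 503, 509 and 581 in NS. Libraries of S and NS lay above WT and those of N below it, each by a small margin. It was not called: the changes were -0.09 ± 0.12 (SE, edgeR adjusted p = 0.864) in N, 0.22 ± 0.12 (SE, edgeR adjusted p = 0.184) in S and 0.21 ± 0.12 (SE, edgeR adjusted p = 0.21) in NS against WT. The scaffold gene eIF4G (chr4:915297-930715) had 628, 621 and 721 CPM in WT, 736, 676 and 763 in N, 790.4, 853 and 702 in S and 803, 685 and 369 in NS. With all libraries its NS change was -0.08 ± 0.23 (SE, edgeR adjusted p = 0.807), and without NS replicate 3 and S replicate 3 it turned to 0.17 ± 0.10 (SE, edgeR adjusted p = 0.24). In S against WT its change was 0.25 ± 0.23 (SE, edgeR adjusted p = 0.447), and 0.31 ± 0.10 (SE, edgeR adjusted p = 0.0332) without these libraries, which passes the threshold. With a correction for exon length it was called higher in both, by 0.57 ± 0.14 (SE, edgeR adjusted p = 0.00833) in S and 0.40 ± 0.14 (SE, edgeR adjusted p = 0.0446) in NS. eIF4AIII, an eIF4A relative of the exon junction complex, had 123, 115.3 and 152 CPM in WT, 143, 146 and 146 in N, 147, 167 and 167 in S and 146, 144 and 221 in NS. It was not called in NS against WT (log2 change 0.39 ± 0.18 (SE), edgeR adjusted p = 0.128).

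The genes eIF5, eIF5B and eIF-5A did not pass the edgeR test with all 12 libraries, unlike eIF-1A, given above, which rose in NS against WT. eIF5, the GTPase-activating protein of eIF2, had 368, 369 and 385 CPM in WT, 413, 395 and 449.6 in N, 450.2, 455 and 419 in S and 405, 364 and 445 in NS. It had a change of 0.24 ± 0.12 (SE, edgeR adjusted p = 0.159) in S and 0.11 ± 0.12 (SE, edgeR adjusted p = 0.492) in NS against WT, and with library totals the NS change turned to -0.05. The S change was called without NS replicate 3 (edgeR adjusted p = 0.0324). Of its exon bases 80.8% are shared with CG46312 on the same strand, so its counts are uncertain. eIF5B had 256, 282 and 286 CPM in WT, 269, 251 and 293 in N, 256, 268 and 209 in S and 237, 225 and 175 in NS. Its NS libraries all lay below WT and N, with NS replicate 3 the lowest, and the change was -0.37 ± 0.15 (SE, edgeR adjusted p = 0.0951). It was called lower without NS replicate 3 and S replicate 3, with -0.26 ± 0.08 (SE, edgeR adjusted p = 0.0413). eIF-5A had 2049.6, 1987 and 1762 CPM in WT, 1799, 2009.7 and 1836 in N, 2119, 2368 and 2691 in S and 2175, 2252 and 4067 in NS, where replicate 3 was far above the rest. Its change in NS against WT was 0.55 ± 0.22 (SE, edgeR adjusted p = 0.0925). It was called higher without NS replicate 1 (edgeR adjusted p = 0.0438).

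The scarce cap-binding paralogs had their highest counts in a single library. eIF4E-3, known from the male germ line, had 257 counts in NS replicate 3 and 2 to 15 counts in each of the other 11 libraries. eIF4E-4 had 121 counts there and 0 or 1 elsewhere, eIF4E-5 had 120 and 0 to 2, and eIF4E-7 had 41 and 0. eIF4E-6 had 16 counts there and 0 to 9 elsewhere, and eIF3gb had 45 and 0 or 1. The tested one, eIF4E-3, had a log2 difference of 3.18 ± 1.18 (SE, edgeR adjusted p = 0.0734) in NS against WT, and of -0.11 ± 0.54 (SE, edgeR adjusted p = 0.895) without NS replicate 3 and S replicate 3. It was called without NS replicate 1 or 2, with edgeR adjusted p between 0.0335 and 0.036, the fits in which NS replicate 3 makes up more of the group.

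In the same library, 15 of 16 genes of sperm formation were at their highest, a list chosen after these counts were seen. Their summed level was 131 CPM in NS replicate 3 and 15.1 to 26.8 CPM elsewhere. dj, a sperm tail gene, had 5.10 CPM there and 0 in all others, betaTub85D, the testis tubulin, had 23.1 CPM, and Mst87F had 10.8 CPM. The exception, mia, made up most of the sum in the other libraries. Of 5 germline markers 2 were highest in NS replicate 3, aly and can, which are also among the 16, and the other three, vas, nos and bam, were highest in S libraries. The sum of the 5 was 10.7 CPM in NS replicate 3 and up to 11.8 CPM elsewhere, in S replicate 3. The part of germline RNA in the paralog counts was not tested.

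**Figure D5:**
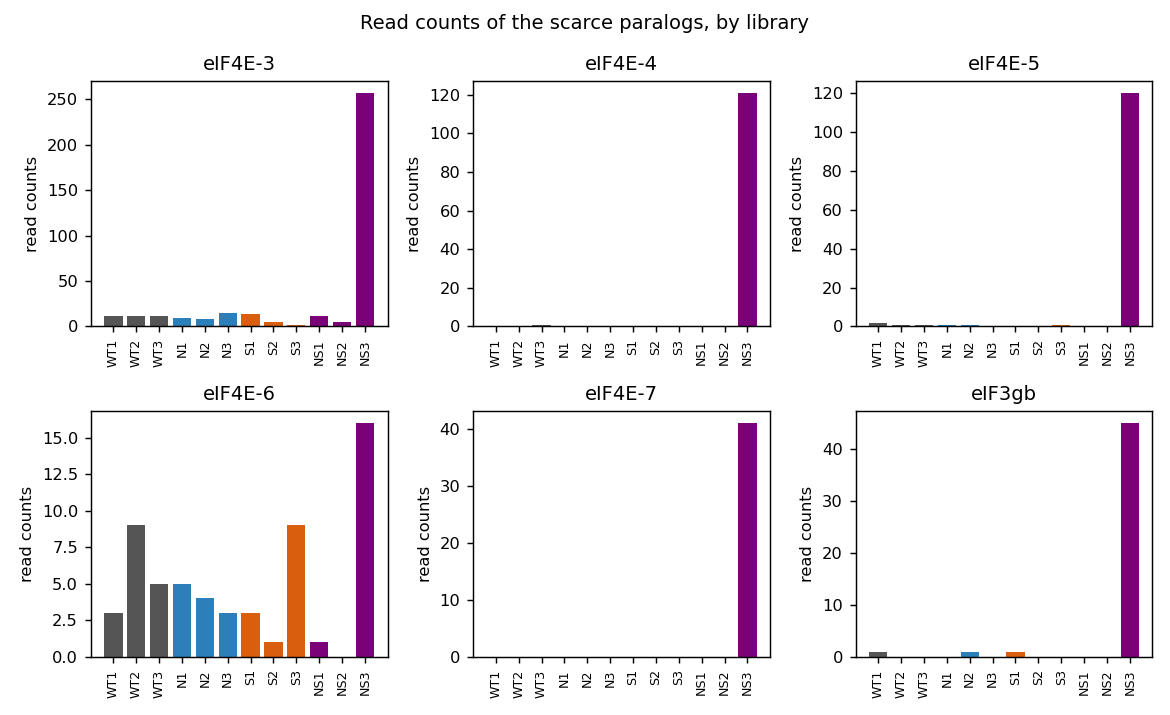
Read counts of eIF4E-3, eIF4E-4, eIF4E-5, eIF4E-6, eIF4E-7 and eIF3gb in each library, not normalised, with axes from 0. The last bar, NS replicate 3, is the highest in each panel, from 16 counts for eIF4E-6 to 257 for eIF4E-3.

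Genes of the same machinery under other names were read from lists, described by their counts of calls. Of 12 tested genes in a list of initiation factors and related genes under other symbols, 4 rose in NS against WT, 0 in S and 0 in N, and 0 fell. Beside this, 12.7% of all genes were called higher in S and 13.9% in NS, and the median log2 change of the list was 0.22 in both. The 4 are the eIF3 subunit gene Int6 and the genes pix, nero and CG8005, whose products split ribosomes or modify eIF-5A. The counts without NS replicate 3 and S replicate 3 were 3 higher and 1 lower in NS, 2 and 2 in S, and 0 and 1 in N, with medians of 0.15 in S and NS. In that fit 16.8% of all genes were called in each direction in NS, and 23.3% and 24.2% in S. The same shares apply to the lists that follow. Int6 (eIF3e) was at 563, 578 and 862 CPM in NS against 463, 468 and 398 in WT (log2 change 0.59 ± 0.17 (SE), edgeR adjusted p = 0.0295). pix (ABCE1, which splits ribosomes) was at 547, 594 and 546 against 392, 424 and 330.0 CPM (log2 change 0.56 ± 0.14 (SE), edgeR adjusted p = 0.018). The gene nero, for the enzyme that completes the hypusine of eIF-5A, changed by 0.78 ± 0.23 (SE, edgeR adjusted p = 0.0347). CG8005, which encodes the enzyme of the step before, was the fourth (log2 change 0.78 ± 0.23 (SE), edgeR adjusted p = 0.0309). The Int6 call was lost without WT replicate 1, 2 or 3, with edgeR adjusted p between 0.0706 and 0.0873. The pix call was lost without WT replicate 1 or 3, with edgeR adjusted p between 0.0587 and 0.0618. The nero call was lost without WT replicate 1 or 2, NS replicate 3, S replicate 2 or N replicate 1, 2 or 3, with edgeR adjusted p between 0.0522 and 0.129. The CG8005 call was lost without WT replicate 1 or 2 or NS replicate 3, with edgeR adjusted p between 0.0871 and 0.114. Without NS replicate 3 and S replicate 3 the log2 changes were 0.35 for Int6, 0.43 for nero and 0.49 for CG8005. Trip1 (eIF3i) had a log2 difference of 0.14 ± 0.18 (SE, edgeR adjusted p = 0.576) and NAT1, an eIF4G relative that binds no eIF4E, one of -0.48 ± 0.27 (SE, edgeR adjusted p = 0.206). NS replicate 3 stood apart in both. Trip1 had 404, 422 and 646 CPM in NS against 461, 469 and 405 in WT. NAT1 had 668, 652 and 292 CPM in NS against 703, 802 and 749 in WT. Among 11 tested eIF subunits under other symbols, a list put together after the data were seen, 3 rose in NS against WT with a median of 0.48, and 3 without NS replicate 3 and S replicate 3 with a median of 0.25.

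Of the 10 tested regulators at the cap and the poly(A) tail, 2 rose in S against WT, 1 in NS and 0 in N, and 0 fell, with medians of 0.23 in S and 0.01 in NS. Without the 2 libraries 4 were called higher in S and 4 in NS, and 1 in N, with medians of 0.22 and 0.25 in S and NS. Thor, which encodes the 4E-binding protein, was at 23.0, 8.59 and 9.96 CPM in WT, 16.5, 31.8 and 15.1 in N, 72.9, 42.7 and 60.3 in S and 74.8, 73.1 and 79.1 in NS. Every S and NS library was above every WT and N library. It rose in S against WT (log2 change 2.08 ± 0.40 (SE), edgeR adjusted p = 0.00421), in NS against WT (log2 change 2.45 ± 0.40 (SE), edgeR adjusted p = 0.00187) and in NS against N (log2 change 1.84 ± 0.40 (SE), edgeR adjusted p = 0.0162). The calls against WT held with each of the 12 libraries left out in turn but not with WT replicate 1 as the only WT library (edgeR adjusted p = 0.126 in S and 0.0738 in NS), and the call against N was lost without N replicate 1 or 3, with edgeR adjusted p between 0.088 and 0.0881. Paip2, an inhibitor of the poly(A)-binding protein, rose in S (log2 change 0.72 ± 0.19 (SE), edgeR adjusted p = 0.0218), a call lost without WT replicate 1, 2 or 3 or S replicate 1, with edgeR adjusted p between 0.0504 and 0.0761. Its partner pAbp had a log2 difference of 0.25 ± 0.22 (SE, edgeR adjusted p = 0.418) and the eIF4E kinase gene Lk6 one of -0.07 ± 0.27 (SE, edgeR adjusted p = 0.868) in NS against WT. NS replicate 3 was far below the other NS libraries in both. pAbp had 2479, 2754 and 1428 CPM in NS against 1746, 1763 and 2103 in WT. Lk6 had 617, 676 and 314 CPM in NS against 486, 622 and 579 in WT.

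The next list covers the integrated stress response, which answers phosphorylated eIF2, and also holds Xbp1, Ire1 and Atf6 of the unfolded protein response. Of its 9 tested genes, 2 rose in S and 2 in NS against WT, and 0 fell there, with medians of 0.02 and -0.07. Without the 2 libraries 2 were called higher and 1 lower in S, and 2 higher and 0 lower in NS, and the NS median turned to 0.13. CG6272 (Irbp18), a bZIP protein of the C/EBP kind, had WT levels of 12.5, 10.3 and 12.2 CPM and N levels of 16.8, 16.6 and 13.7. The S libraries had 25.2, 29.3 and 25.4 CPM, and the NS libraries had 25.1, 24.2 and 23.3, with no overlap between these libraries and the rest. It rose in S (log2 change 1.19 ± 0.13 (SE), edgeR adjusted p = 0.000153) and in NS (log2 change 1.05 ± 0.13 (SE), edgeR adjusted p = 0.000344), and both calls held with each of the 12 libraries left out in turn. Gadd34, for the phosphatase subunit that acts on eIF2 alpha, rose in S (log2 change 0.63 ± 0.12 (SE), edgeR adjusted p = 0.00451). crc, the ATF4 gene, rose in NS (log2 change 0.51 ± 0.15 (SE), edgeR adjusted p = 0.032), a call lost without WT replicate 1, 2 or 3, NS replicate 2 or S replicate 2, with edgeR adjusted p between 0.0543 and 0.106. The kinase genes Gcn2 and PEK had log2 differences of -0.54 ± 0.31 (SE, edgeR adjusted p = 0.219) and -0.17 ± 0.21 (SE, edgeR adjusted p = 0.577) in NS. Both values include NS replicate 3, the lowest library for each. Gcn2 had 66.4, 64.6 and 24.1 CPM in NS against 62.1, 82.6 and 80.5 in WT. PEK had 189, 171 and 103 CPM in NS against 170, 203 and 146 in WT. In N against WT 1 gene of the list fell, Xbp1 (log2 change -0.52 ± 0.12 (SE), edgeR adjusted p = 0.0444), with the call lost without WT replicate 1 or 2, NS replicate 1 or 2, S replicate 1 or 2 or N replicate 1, 2 or 3, with edgeR adjusted p between 0.0644 and 0.212.

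Of 13 tested genes of the TOR pathway, 2 rose and 1 fell in S, and 3 rose and 1 fell in NS against WT, with medians of 0.09 and 0.04. Without the 2 libraries 7 were called higher and 3 lower in S and 7 higher and 1 lower in NS, with medians of 0.24 and 0.37. REPTOR-BP, the partner of a transcription factor that TOR holds back, rose in S (log2 change 0.84 ± 0.17 (SE), edgeR adjusted p = 0.00514) and NS (log2 change 1.09 ± 0.17 (SE), edgeR adjusted p = 0.00122). The amino acid transporter gene slif fell in S (log2 change -1.22 ± 0.22 (SE), edgeR adjusted p = 0.00321). Of 18 cytosolic aminoacyl-tRNA synthetase genes 4 rose in S and 5 in NS, and 0 fell, with medians of 0.28 and 0.34. Without the 2 libraries 9 were called higher in S and 7 in NS, with medians of 0.27 and 0.22. Aats-thr, for threonine, was at 307, 307 and 313 CPM in WT, 322, 314 and 303 in N, 450.1, 503 and 486 in S and 462, 441 and 568 in NS. It rose in S (log2 change 0.63 ± 0.12 (SE), edgeR adjusted p = 0.00475) and NS (log2 change 0.67 ± 0.12 (SE), edgeR adjusted p = 0.00393). Of 9 elongation and termination factor genes, 1 fell in NS against WT, and 0 rose there or were called in S, with medians of 0.18 in S and 0.31 in NS, and of 0.14 and 0.09 without the 2 libraries, where the counts were again 0 in S and 1 lower in NS. The one that fell was Ef1alpha100E, the second gene of the factor that brings aminoacyl-tRNA to the ribosome, with 35.1, 38.5 and 20.4 CPM in WT and 1.74, 2.41 and 0.832 in NS (log2 change -4.25 ± 0.88 (SE), edgeR adjusted p = 0.00644). Its levels were 11.3, 5.03 and 7.22 CPM in N and 21.5, 2.84 and 2.07 in S, without a call against WT.

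In N against WT 0 genes of the TOR, synthetase and elongation lists were called by edgeR, and without the 2 libraries 3 of the TOR list were called higher there. Over these 6 lists together, of 71 tested genes 10 rose and 1 fell in S against WT, which is 14.1% and 1.41% beside 12.7% and 10.7% of all genes. In NS against WT 15 rose and 2 fell, which is 21.1% and 2.82% beside 13.9% and 10.7%. Without the 2 libraries 24 were called higher and 6 lower in S (33.8% and 8.45%) and 23 and 3 in NS (32.4% and 4.23%). The 10 became 5 without WT replicate 1 or 2, 6 without S replicate 1 or 2, and 20 without NS replicate 3. The 1 became 2 without S replicate 1 and 5 without NS replicate 3. The 15 became 4 when WT replicate 1 was left out and 5 for WT replicate 2, and the 2 became 1 when NS replicate 2, S replicate 2, WT replicate 1 or 2, or any of the N libraries was left out. With WT replicate 1 as the only WT library, 1 gene was called higher in S and 2 in NS.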

How the data were processed

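The authors deposited their data as whole-number read counts for each symbol in 12 libraries. TopHat2 2.0.9, Bowtie2 2.1.0, HTSeq, edgeR, DESeq and the build dm6 are named in the submitters' processing notes; per the labels' protocols, libraries were made with a stranded mRNA kit. Which annotation release was counted, and whether by strand, is not given in the sources used here. 2 blank lines of the table were left out.

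The test was edgeR 4.0.16 under R 4.3.3 (filterByExpr, which left 9444 genes, TMM, quasi-likelihood fit over 12 libraries with 8 residual degrees of freedom, adjusted p threshold 0.05). SE is the log2 change divided by the square root of F. A level below 3 counts (0.0662 to 0.148 CPM by library) is not distinguishable from 0, for counting error only. Symbols were matched to Ensembl BDGP6 (the assembly of dm6) for exon lengths, overlaps and current names: 13320 by current symbol, 4215 by synonym, 42 by synonym once genes matched by current symbol were left out, and 139 not at all; all 32 members matched.

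The members and lists were chosen with earlier results of these data known. Values in every library are given for called members and for a set list of factors; from each pathway list, for up to 4 members with the smallest adjusted p and for 11 set genes. The ratios, the sperm formation list, the list of eIF subunits under other symbols, the edgeR 4 deviance correction and the block fit of NS and S alone were added after seeing the data.

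Alternatives were library totals, RLE size factors, DESeq2 1.42.0, all genes without the filter, the compared groups only, a replicate block, each library left out, WT replicate 1 alone, NS replicate 3 and S replicate 3 left out, and offsets corrected for exon length (lowess span 0.3). Deviations from group means correlated between NS and S libraries of the same replicate number (r = 0.456, 0.493 and 0.327 across genes). In other pairs of groups r ran from -0.495 to 0.230. Libraries of unlike number were not compared, so these values do not show that the numbers pair libraries. The fit was run on simulated counts with changes larger than those of most members and with no trend with exon length. That run does not cover changes as small as those given here or a library like NS replicate 3. Promoter and protein sequences were not used here.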

Additional observations from a re-analysis of the deposited data

Results flagged for a closer look

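Counts in genes outside the tests stood above the WT libraries in NS replicate 3: eIF4E-4 had 121, eIF4E-5 had 120, eIF3gb had 45, eIF4E-7 had 41 and eIF4E-6 had 16. The highest WT library had 1, 2, 1, 0 and 9 counts of these genes in the same order. All 5 are paralogs of genes that are well covered in every library, and they rest on 1 library.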

How the results depend on the processing

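Leaving out 1 library at a time gave 0 to 13 members called higher in S against WT, 2 to 12 in NS against WT and 0 to 3 in NS against N, with medians of 0.23 to 0.50, 0.19 to 0.40 and 0.00708 to 0.20 in NS against WT, N and S. For the pathway lists it gave 5 to 20 genes higher and 1 to 5 lower in S, and 4 to 16 higher and 1 to 2 lower in NS. For members called higher in S against WT, DESeq2 gave 4, RLE size factors, library totals, no filter, the replicate block and the edgeR 4 deviance correction 1 each, the length correction 5, the fit without NS replicate 3 and S replicate 3 gave 8, and WT replicate 1 alone 0. In NS against WT library totals gave 2, no filter 4, the replicate block 5, and the compared groups only and WT replicate 1 alone 0. Of all genes, 16.5% were called higher in S against WT by DESeq2, 19.3% with the length correction and 23.3% without the 2 libraries. RLE size factors, library totals, no filter, the replicate block and the deviance correction gave 11.4%, 8.74%, 6.36%, 11.6% and 14% there. In NS against WT library totals gave 8.44%, no filter 6.81%, the replicate block 12.3% and the compared groups only 5.18%. Members called lower were 1 by DESeq2 and 2 without the 2 libraries in NS, and 2 without them in N (14.8%, 16.8% and 9.02% of all genes). In NS against N, DESeq2 gave 9, the fit without the 2 libraries 9 and the length correction 5 (9.4%, 8.62% and 8.26% of all genes called higher). Library totals gave medians of 0.23 and 0.18 in NS against WT and N, and the fit without the 2 libraries 0.23, 0.20 and, against S, -0.00434. Beside the pathway list counts that follow, the length correction called 19.3% of all genes higher in S and 16.1% in NS. Library totals called 8.74% and 8.44% higher, and the fit without the 2 libraries 23.3% and 16.8%. Pathway list genes higher were, in S, 5 with library totals, 24 without the 2 libraries, 1 with WT replicate 1 alone and 19 with the length correction. In NS they were 4, 23, 2 and 27, and 3 with the compared groups only. Those lower were 6 in S without the 2 libraries and 0 with WT replicate 1 alone, and 2 with DESeq2, the block, the compared groups only or the length correction; in NS they were 1 with no filter, the block or the compared groups only and 0 with WT replicate 1 alone. Some changes reversed in sign. In S, eIF-5A, at 0.31 in the main fit, reversed with the length correction (-0.00174). The change of eIF2B-epsilon reversed in S with library totals (-0.0466) and without S replicate 2 (-0.0035), and in NS without NS replicate 2 (0.00532), without WT replicate 3 (0.00408) and with WT replicate 1 alone (0.0299). In NS, eIF5 reversed with library totals (-0.0507), eIF2B-delta without NS replicate 1 (0.0277) or 2 (0.0488), and eIF4G without NS replicate 3 (0.17), both libraries (0.17) or with the length correction (0.40). There eIF4E-3, at 3.18 in the main fit, reversed without NS replicate 3 (-0.11) or both libraries (-0.11). The cause was not tested. With 1 library left out, these changes ranged from -0.0035 to 0.15 for eIF2B-epsilon in S, and in NS from -0.0886 to 0.00532 for eIF2B-epsilon, -0.30 to 0.0488 for eIF2B-delta, -0.32 to 0.17 for eIF4G and -0.11 to 3.74 for eIF4E-3. Blocking on replicate gave no call of a member in NS against S, where 0 members were called without the block. Whether replicate numbers pair libraries was not tested. Exon length taken from the longest transcript moved the WT level of eIF-4a to 1434 and of eIF-4E to 256 CPM per kb. Genes under 3 counts in a library cannot be read at this depth.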
